A study of Mus musculus with 4 samples.

Results

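The insulin-like growth factor (IGF) axis was examined in mouse skin dermis through 10 genes, the ligands Igf1 and Igf2, the receptor Igf1r and the binding proteins Igfbp1 to Igfbp7. They were taken by name, with every probe set that the array's annotation gives to one of them alone, which came to 27 probe sets out of 45101 and to 10 genes out of 18193. RNA of dermal cells from C57BL/6 female mice was hybridised to Affymetrix mouse arrays, with 1 array for each of 4 conditions. The conditions were abdominal skin of virgin mice injected with the vehicle DMSO (virgin array), dorsal skin of 15 dpc mice injected with DMSO (dorsal array), abdominal skin of 15 dpc mice injected with DMSO (abdominal array) and, from the same site and stage, skin given PP2, an inhibitor of Src family kinases (PP2 array). Injections were intradermal, 2 a day for 4 days, starting at 12 dpc in the pregnant mice, and PP2 was given at 1 mM. The mice were 10 weeks old by one label and 8 to 12 weeks old by the series' design, and the pregnant mice were at 15 dpc by their titles and at 16 dpc by their descriptions. Virgin and pregnant skin thus shared strain, sex and injection schedule, and the dorsal and PP2 arrays each differed from the abdominal array in 1 labelled factor. The sources used here do not say if mice were pooled for an array. The study asked which secreted proteins of the dermis might signal to the dividing basal cells of the epidermis above it.

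IGF1 and IGF2 are small secreted hormones that activate IGF1R, a receptor tyrosine kinase, which passes the signal through insulin receptor substrate (IRS) proteins to phosphoinositide 3-kinase and AKT and so favours growth and survival. In tissue fluid the ligands are held by binding proteins, which can keep them from the receptor, store them in the matrix or deliver them, and proteases that cut the binding proteins set the ligands free. In skin, IGF1 is known as a product of dermal fibroblasts and of the dermal papilla of the hair follicle, while the receptor is found on keratinocytes.

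The start regions of 3 of the genes are shown because the results turn on them, Igfbp2 being highest on the abdominal array and Igfbp3 and most probe sets of Igf1 lowest. Each is the 250 bases before an annotated start in the RefSeq promoter table of build GRCm38.p6, written 5′ to 3′ on the strand of the gene, and capitals mark matches to the letters searched for on both strands. For Igfbp2 this is chr1:72824230-72824479 on the plus strand, the first of 2 annotated starts, for Igfbp3 chr11:7213924-7214173 on the minus strand, and for Igf1 chr10:87860861-87861110 on the plus strand.
Igfbp2: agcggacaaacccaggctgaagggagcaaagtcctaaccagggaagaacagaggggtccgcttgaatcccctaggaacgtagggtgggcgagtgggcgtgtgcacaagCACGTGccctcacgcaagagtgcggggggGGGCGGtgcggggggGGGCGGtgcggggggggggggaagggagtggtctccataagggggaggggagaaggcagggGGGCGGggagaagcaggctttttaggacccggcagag
Igfbp3: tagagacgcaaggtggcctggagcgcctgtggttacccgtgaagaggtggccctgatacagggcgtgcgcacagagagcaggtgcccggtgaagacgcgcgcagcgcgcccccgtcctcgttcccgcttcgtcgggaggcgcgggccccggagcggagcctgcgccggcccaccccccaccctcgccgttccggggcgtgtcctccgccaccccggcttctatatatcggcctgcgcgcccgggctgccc
Igf1: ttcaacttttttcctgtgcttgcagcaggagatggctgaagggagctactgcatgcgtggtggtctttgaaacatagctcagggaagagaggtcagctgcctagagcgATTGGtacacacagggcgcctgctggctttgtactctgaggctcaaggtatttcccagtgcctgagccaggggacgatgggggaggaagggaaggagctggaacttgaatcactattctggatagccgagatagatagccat

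The letters searched for were TATAA, the core of the TATA box, then GGGCGG, the GC box, then CCAAT, and the E-box CACGTG, and no matches overlapped. The Igfbp2 window held GGGCGG in 3 places and CACGTG in 1, against 32.7% and 6.02% of all 32851 promoters with at least 1 match. The other annotated start of Igfbp2 held none of the 4. In the Igf1 window CCAAT matched once, on the opposite strand as ATTGG, a match that 33.8% of all promoters had. The Igfbp3 window held none of these letters but had 32 CG pairs and 73.2% G or C, where the median promoter had 6 and 52.4%, and Igfbp2 had 14 and 67.2%. TATAA, present in 22.8% of all promoters, was in none of these 3 windows. Only these exact letters were searched for, so the similar run tatatat near the end of the Igfbp3 window was not counted. These matches describe letters and not bound sites, and no binding or methylation was measured.

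The arrays were alike in the share of probe sets called present, 58.4% to 59.7%, but the abdominal array stood apart in its hair follicle markers. Of 9 measured genes of the hair shaft and matrix, 9 were called present on the abdominal array and 2 on each other array, and their summed signal was 7751 there against 1734 on the virgin, 2093 on the dorsal and 2450 on the PP2 array. For the Gapdh controls, the signal at the 3′ end over that at the 5′ end, a measure of RNA integrity and labelling, was highest on the PP2 array at 5.84, against 1.41 on the abdominal, 2.51 on the virgin and 2.97 on the dorsal array. The same ratio for beta-actin was ordered otherwise, at 4.14 on the dorsal, 2.70 on the PP2, 2.64 on the virgin and 2.03 on the abdominal array. The 10 fibroblast markers were present on all 4 arrays, and of 10 keratinocyte markers 9 were present on the virgin array and 10 on each other array. In bulk RNA, fewer cells of a type and less RNA per cell cannot be told apart. The values below are MAS5 signals, an intensity in arbitrary units on a linear scale. With 1 array per condition there was no replicate, so no value carries an error and no difference was tested against replicate spread. All 3 ratios use the same abdominal array and are therefore not independent of each other.

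Igfbp2 was the member that differed most, and it was brightest on the abdominal array. The protein binds both ligands and stays partly at the cell surface and matrix. Its single probe set (1454159_a_at) had a signal of 2023 on the virgin, 646 on the dorsal, 9084 on the abdominal and 3113 on the PP2 array, each called present. The order was thus abdominal, PP2, virgin, dorsal, and the abdominal signal was 4.49-fold that of virgin skin, 2.92-fold that of PP2-injected skin and 14.1-fold that of dorsal skin. Between the other arrays the PP2 signal was 1.54-fold the virgin signal, and the virgin signal was 3.13-fold the dorsal one. The study picked Igfbp2 on these same arrays for being more than 2-fold higher in 15 dpc abdominal dermis, so the excess is a description and not independent evidence. With a common median or quantiles in place of the deposited scaling, the abdominal excess was 4.62- and 4.56-fold over virgin, 2.71- and 3.18-fold over PP2, and 14.8- and 15.0-fold over dorsal skin.

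**Figure D1:**
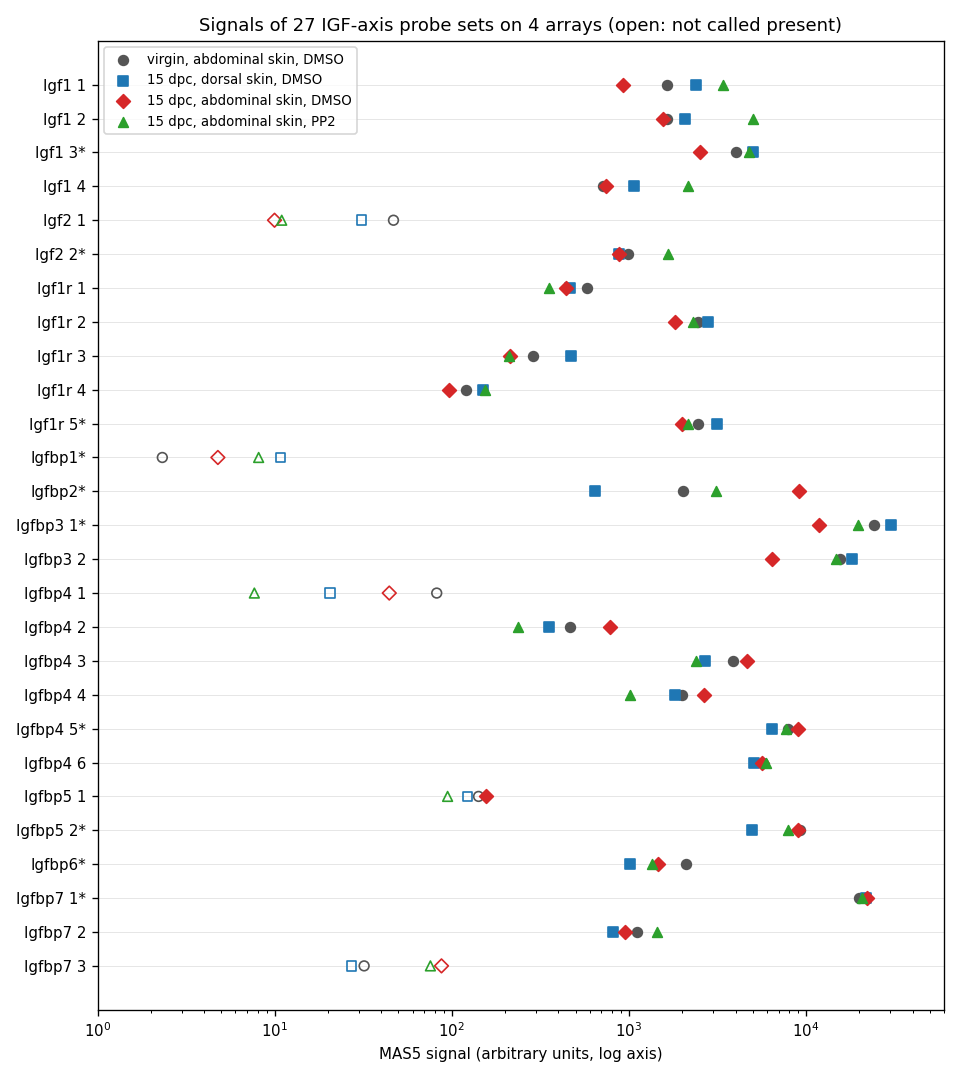
MAS5 signal (arbitrary units, log axis) of the 27 probe sets of the 10 genes on the 4 arrays, with 1 point per array; filled points were called present, open points were not, and a star marks the brightest probe set of each gene. The red diamond of Igfbp2 lies at 9084, to the right of its other points, whereas those of both Igfbp3 probe sets lie to the left of theirs, at 11912 and 6408.

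Igfbp3, the main carrier of IGFs in blood, went the other way. On its brighter probe set (1423062_at) the signal was 24337 on the virgin, 30048 on the dorsal, 11912 on the abdominal and 19558 on the PP2 array. On the other (1458268_s_at) the signals were 15461, 18181, 6408 and 14697 in that order. Both probe sets were thus lowest on the abdominal array and highest on the dorsal one. The abdominal signal was 2.04- and 2.41-fold below virgin, 1.64- and 2.29-fold below PP2 and 2.52- and 2.84-fold below dorsal skin, the brighter probe set given first. Against virgin skin the brighter probe set lay at the 2-fold limit, and it fell inside it under both other scalings. Among the other 3 arrays its highest signal was 1.54-fold the lowest.

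Igfbp4, a binding protein that is cut by the protease PAPP-A, gave readings that depended on the probe set. Of 6 probe sets 1 was called absent on all arrays. The brightest of the other 5 (1437405_a_at) was at 7879 on the virgin, 6411 on the dorsal, 9039 on the abdominal and 7715 on the PP2 array, so that the highest signal was only 1.41-fold the lowest. A probe set near it in brightness (1437406_x_at) ranged from 5054 to 5977. By contrast, 1421992_a_at was at 464, 354, 781 and 235 in the same order of arrays, highest on the abdominal and lowest on the PP2 array. With 1989.8, 1826, 2663 and 1009.8, 1423757_x_at had the same highest and lowest array. Their abdominal signals were 3.32- and 2.64-fold those after PP2, while 1423756_s_at, with 4658 on the abdominal and 2404 on the PP2 array, was 1.94-fold higher. The standard deviation of the 5 log2 ratios over PP2 was 0.77, against a median of 0.29 over the 5310 genes with several probe sets present on both arrays. Of the 5, 4 were higher on the abdominal than on the PP2 array and 1 was level, so the size of the difference rested on the probe set. Of the 3′ to 5′ control ratios given above, that of Gapdh was highest on the PP2 array and that of beta-actin was not, and the part of RNA integrity in this spread was not tested.

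The gene next to Igfbp2 on chromosome 1 is Igfbp5, a binding protein of connective tissue and muscle. Its brighter probe set (1452114_s_at) had signals of 9230 on the virgin, 4971 on the dorsal, 8998 on the abdominal and 7910 on the PP2 array. Like Igfbp2 it was lowest in dorsal skin, by 1.81-fold against abdominal skin, but virgin and 15 dpc abdominal skin were within 1.03-fold. The second probe set was dim and was called present only on the abdominal array, at 157. The neighbour of Igfbp3 on chromosome 11, Igfbp1, a binding protein made chiefly by liver and decidua, was called absent on all 4 arrays.

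Igfbp6, which prefers IGF2 to IGF1, was at 2095 on the virgin, 1020.5 on the dorsal, 1461 on the abdominal and 1356 on the PP2 array. It was lowest in dorsal skin, as Igfbp5 was, but highest in virgin skin, 1.43-fold above 15 dpc abdominal skin. Igfbp7, a matrix protein of low affinity for IGFs, was nearly level on its brightest probe set, at 19889, 21751, 21975 and 20723 on the virgin, dorsal, abdominal and PP2 arrays. Its highest signal was 1.10-fold its lowest. On a second probe set (1423585_at) the range was 816 to 1437, with the PP2 array highest, and the remaining one was called absent on all arrays.

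The ligand Igf1 was brightest either after PP2 or in dorsal skin. Its brightest probe set (1437401_at) gave 4011 on the virgin, 5023 on the dorsal, 2529 on the abdominal and 4794 on the PP2 array. On 1419519_at the signals were 1632, 2406, 931 and 3400 in that order. On 1434413_at they were 1636, 2073, 1554 and 5033, and on 1452014_a_at 711, 1074, 742 and 2151. The abdominal signal was the lowest of the 4 on 3 of these probe sets, and on the last it was 1.04-fold the virgin signal. Against PP2 it was lower on all 4 probe sets, by 1.90-, 3.65-, 3.24- and 2.90-fold in the order given. Against dorsal skin it was 1.99-, 2.58-, 1.33- and 1.45-fold lower. Against virgin skin the probe sets ran from 1.75-fold lower to level. The PP2 array was also above the virgin array, by 1.20-, 2.08-, 3.08- and 3.03-fold.

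Igf2, the fetal growth hormone of the pair, was measured by 1 probe set (1448152_at), the other being called absent throughout. It stood at 983 on the virgin, 879 on the dorsal, 882 on the abdominal and 1658 on the PP2 array. The PP2 array was thus the high one, 1.88-fold above the abdominal array, and the other 3 signals were within 1.12-fold.

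The receptor Igf1r was lowest on the abdominal array on 3 of its 5 probe sets and on the PP2 array on the other 2. Its brightest probe set (1452982_at) was at 2456 on the virgin, 3162 on the dorsal, 1987 on the abdominal and 2162 on the PP2 array. All 5 probe sets were lower on the abdominal than on the virgin array, by 1.24- to 1.35-fold, and lower than on the dorsal array, by 1.05- to 2.21-fold. Only 1446303_at passed 2-fold, with 472 in dorsal and 213 in abdominal skin. Against PP2 the 5 log2 ratios lay on both sides of 0, from -0.68 to 0.32.

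**Figure D2:**
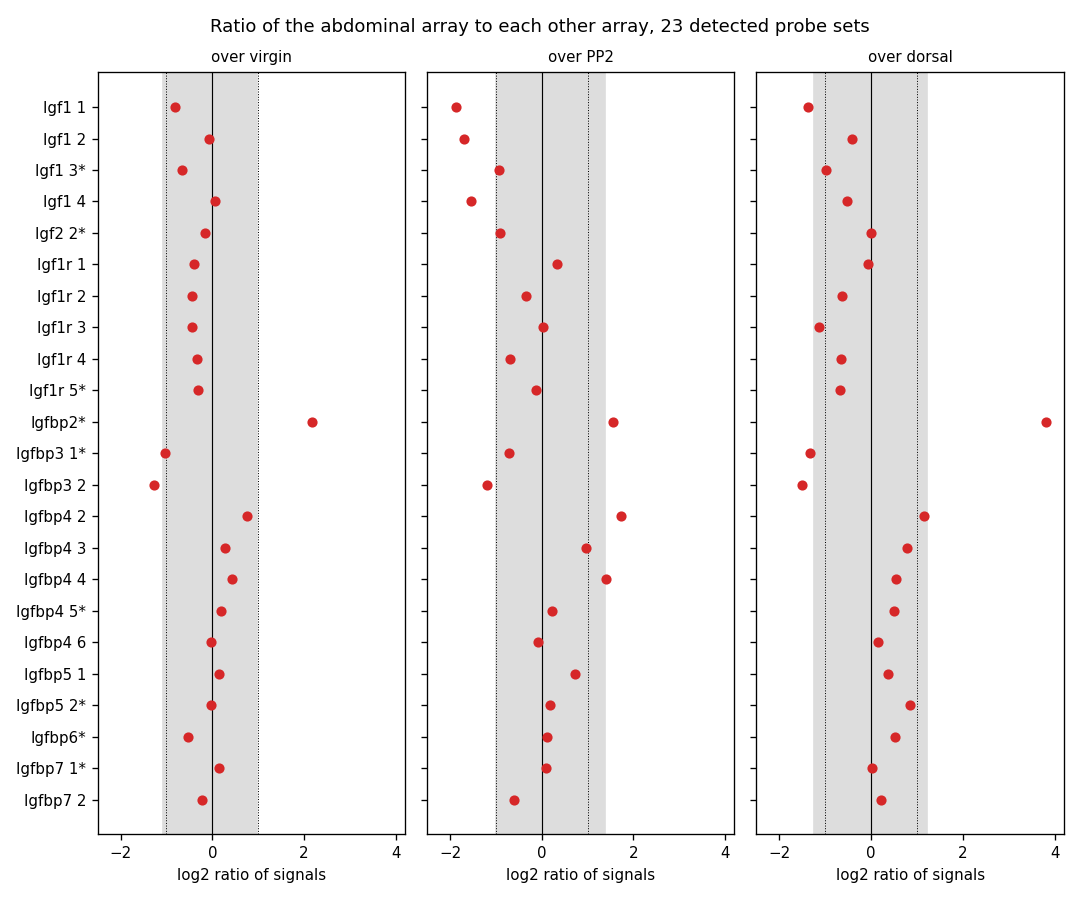
Log2 ratio of the abdominal signal to the virgin, PP2 and dorsal signals for the 23 probe sets called present on at least 1 array, with 1 point per probe set. The grey band holds the central 95% of all probe sets present on both arrays, dotted lines mark 2-fold, and the Igfbp2 point lies right of the band in each panel, at 2.17, 1.55 and 3.81.

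Of the 27 probe sets, 23 were called present on at least 1 array, 22 of them on all 4, and these belonged to 9 genes. A probe set was counted as higher or lower when its ratio passed 2-fold and it was called present on the brighter array. Against virgin skin 1 of 23 was higher on the abdominal array (Igfbp2) and 2 were lower (both of Igfbp3), where 3.48% of all 23275 probe sets tested were higher and 4.09% lower. Against PP2, 3 were higher (Igfbp2 and 2 of Igfbp4) and 4 lower (3 of Igf1 and 1 of Igfbp3), with 7.89% and 3.39% of all 23627. Against dorsal skin, 2 were higher (Igfbp2 and 1 of Igfbp4) and 4 lower (both of Igfbp3, 1 of Igf1 and 1 of Igf1r), with 5.51% and 5.76% of all 23398. The members' shares were 4.35% and 8.7% against virgin, 13% and 17.4% against PP2, and 8.7% and 17.4% against dorsal skin. Probe sets of 1 gene read the same transcripts, so that the 4 lower ones against PP2 stood for 2 genes.

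Igfbp2 was the 1 member higher on the abdominal array than on each other array, as 0.895% of all probe sets were, and 1 probe set of Igfbp3 (1458268_s_at) was lower than on each other array, as 0.814% were. With the PP2 array left out, Igfbp2 remained the only member higher than on the virgin and dorsal arrays (1.43% of all probe sets), and both probe sets of Igfbp3 were lower than on these (1.81%). Over the 23 probe sets the median log2 ratio was -0.16 over virgin, -0.08 over PP2 and 0.00 over dorsal skin, beside 0.02, 0.04 and 0.02 over all probe sets present on both arrays. Those above 0 numbered 8, 11 and 12 of 23. By these medians the members as a group lay near the whole array, with Igfbp2 on one side and Igfbp3 and most probe sets of Igf1 on the other. For Igf1 this did not hold against virgin skin on 1434413_at and 1452014_a_at, which were within 1.05- and 1.04-fold of it. The members' shares past 2-fold were above those of all probe sets, but they rested on few probe sets, several of them of 1 gene. The gap was widest for those lower against PP2, 17.4% beside 3.39%, which were probe sets of Igf1 and Igfbp3 alone. By the brightest probe set of each gene this gap was gone, with 0 members lower against PP2 beside 3.74% of all genes.

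The summed hair marker signals, highest on the abdominal array like Igfbp2, were 1734, 2093, 7751 and 2450 on the virgin, dorsal, abdominal and PP2 arrays. In each comparison 8 of the 9 genes were above 0 on the log2 scale. The hair keratins Krt31, Krt33b, Krt34, Krt35 and Krt86 were called present on the abdominal array alone, whereas Igfbp2 was present on all 4. Lef1 of the same list was lowest on the abdominal array, at 1099.8, 1389, 556 and 1558. Adipocyte markers (5 of 8 measured were detected, and Cidec, Lep and Retn were not) summed to 38289, 28642, 51873 and 30929, also highest on the abdominal and lowest on the dorsal array. Fabp4 made up most of these sums, and without it they were 6710, 2580, 10112 and 9412, with abdominal and PP2 skin nearly level. The abdominal signal was above virgin and dorsal in 5 of the 5 detected genes and above PP2 in 4. Lpl was highest on the PP2 array, at 7944 against 6402 on the abdominal array. Smooth muscle and pericyte markers, 9 of 10 detected, summed to 50393, 36782, 54114 and 38701, highest on the abdominal and lowest on the dorsal array. Without Acta2 the sums were 35649, 29213, 37661 and 28356, with the PP2 array lowest. Gene by gene, the abdominal signal was above virgin in 4 of the 9, above PP2 in 6 and above dorsal in 5. Among them Myh11, a myosin of smooth muscle, had the largest abdominal excess, at 1923, 1117, 3706 and 1207. By contrast Kcnj8 was lowest on the abdominal array, at 661, 996, 446 and 858, as were Des and Mcam on their brightest probe sets.

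Dermal papilla markers, 10 of 10 detected, summed to 11926, 10155, 6807 and 15272, lowest on the abdominal array like both Igfbp3 probe sets and most of Igf1. Gene by gene, the abdominal signal was below virgin in 9 of the 10 and below PP2 in 8, but below dorsal in only 4. Sox2 made up most of the difference from dorsal skin, at 3635 there and 527 on the abdominal array, and without it the sums were 6519 and 6280. Keratinocyte markers, 10 of 10 detected, summed to 89527, 151117, 109799 and 65371, highest in dorsal skin like Igfbp3 but, unlike it, lowest on the PP2 array. Gene by gene, the abdominal signal was above virgin in 9 of the 10 and above PP2 in 8, but above dorsal in only 2. Fibroblast marker sums ran from 83792 on the dorsal to 122257 on the virgin array, endothelial sums (10 of 10 detected) from 37161 on the PP2 to 49717 on the virgin array, and macrophage sums (9 of 10) from 3369 on the dorsal to 5988 on the virgin array. The part of these cells in the values of Igfbp2, Igfbp3 and Igf1 was not tested.

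**Figure D3:**
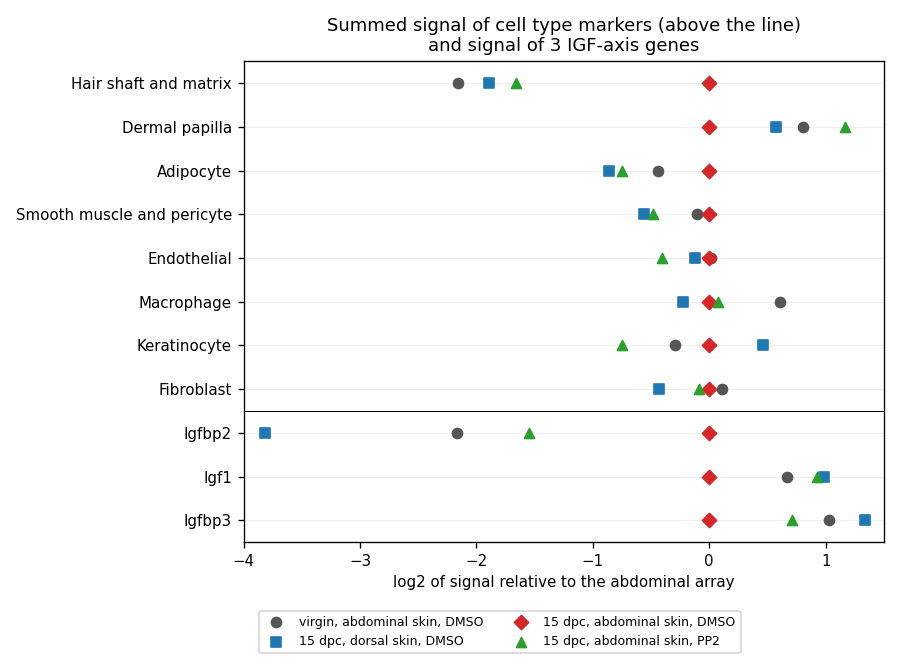
Log2 of the signal on each array relative to the abdominal array, for the summed signal of 8 marker lists (above the line) and for the brightest probe sets of Igfbp2, Igf1 and Igfbp3, with 1 point per array and the abdominal array at 0. The points of the hair, adipocyte and smooth muscle lists lie left of 0 on the other arrays as those of Igfbp2 do. The hair sum is lowest on the virgin array and Igfbp2 on the dorsal array, and 4 of 9 smooth muscle genes were above virgin. The points of the dermal papilla list lie right of 0 as those of Igf1 and Igfbp3 do. Of its 10 genes, however, 6 were higher on the abdominal than on the dorsal array.

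The genes around the members were taken from lists by function and read on the brightest probe set of each gene. Among receptors and signal carriers (16 of 19 detected), 0 passed 2-fold against virgin skin or PP2, and 1 was lower against dorsal skin. By this reading, 3.41% of all 12744 genes tested were higher and 3.55% lower against virgin skin, 4.89% and 3.74% against PP2, and 5.25% and 4.96% against dorsal skin. The gene lower against dorsal skin was Irs2, an adaptor between receptor and phosphoinositide 3-kinase, with 538 on the virgin, 815 on the dorsal, 399 on the abdominal and 791 on the PP2 array. Irs1, another such adaptor, was higher on the abdominal than on the dorsal array but within 2-fold, at 929, 862, 1420 and 1506 in that order. On dimmer probe sets Akt1, Akt2 and Pik3r1, which carry the signal onwards, passed 2-fold as higher over PP2, and Socs2, an inhibitor of growth hormone signalling, as lower. When all probe sets and not only the brightest were read, 7.89% on the array were higher and 3.39% lower against PP2. For Akt1 the log2 ratio over PP2 was 0.39 on the brightest and up to 5.42 on the other detected probe sets. The latter is a ratio of the signals as deposited, with no bound set for an array without a present call, so its size is uncertain. Likewise Ghr was higher and Socs2 lower against virgin skin, and Pik3r1 was higher and Grb14 and Socs2 were lower against dorsal skin, so that the count depended on the probe set read. The medians of the list were 0.00, -0.07 and -0.13 on the log2 scale over virgin, PP2 and dorsal skin.

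Proteases of the binding proteins and their inhibitors, 14 of 14 detected, were read in the same way and against the same shares of all genes. On the abdominal array 1 was higher and 3 lower than in virgin skin, 1 higher and 6 lower than after PP2, and 2 higher and 3 lower than in dorsal skin. One of the 6, Mmp14, a membrane-bound metalloprotease, was lower by its brightest probe set (log2 ratio -1.05) but higher by its other 2 (1.41 and 2.25), so its direction was not settled. Mmp2 passed 2-fold as higher than in dorsal skin on a dimmer probe set only, with a log2 ratio of 1.02 against 0.85 on its brightest. Stc2 (stanniocalcin 2), a secreted inhibitor of PAPP-A, was at 2993 on the virgin, 1663 on the dorsal, 261 on the abdominal and 1336 on the PP2 array, which put the abdominal array 11.5-fold below virgin, 6.38-fold below dorsal and 5.13-fold below PP2-injected skin. Its other 2 probe sets were lower in each comparison too, with log2 ratios from -1.30 to -2.30. The related inhibitor Stc1 went the other way, at 468, 459, 1615 and 713, and the abdominal array was 3.45-, 3.52- and 2.26-fold above the virgin, dorsal and PP2 arrays.

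The proteases themselves were lower on the abdominal array in part. Pappa2, which cuts IGFBP3 and IGFBP5, was at 4306 on the virgin, 3822 on the dorsal, 1263 on the abdominal and 4970 on the PP2 array, 3.03- to 3.93-fold lower on the abdominal one. Pappa (PAPP-A), the protease of IGFBP4, was at 994, 434, 418 and 1005, so that abdominal and dorsal skin were alike and both below the other arrays, while its other detected probe set had 376 in dorsal and 248 in abdominal skin. Timp1, an inhibitor of matrix metalloproteases, was at 271, 729, 198 and 440, highest in dorsal skin. Mmp3, a matrix metalloprotease that can cut IGFBP3, was at 1778, 387, 1789 and 1422, and it was low in dorsal skin alone.

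**Figure D4:**
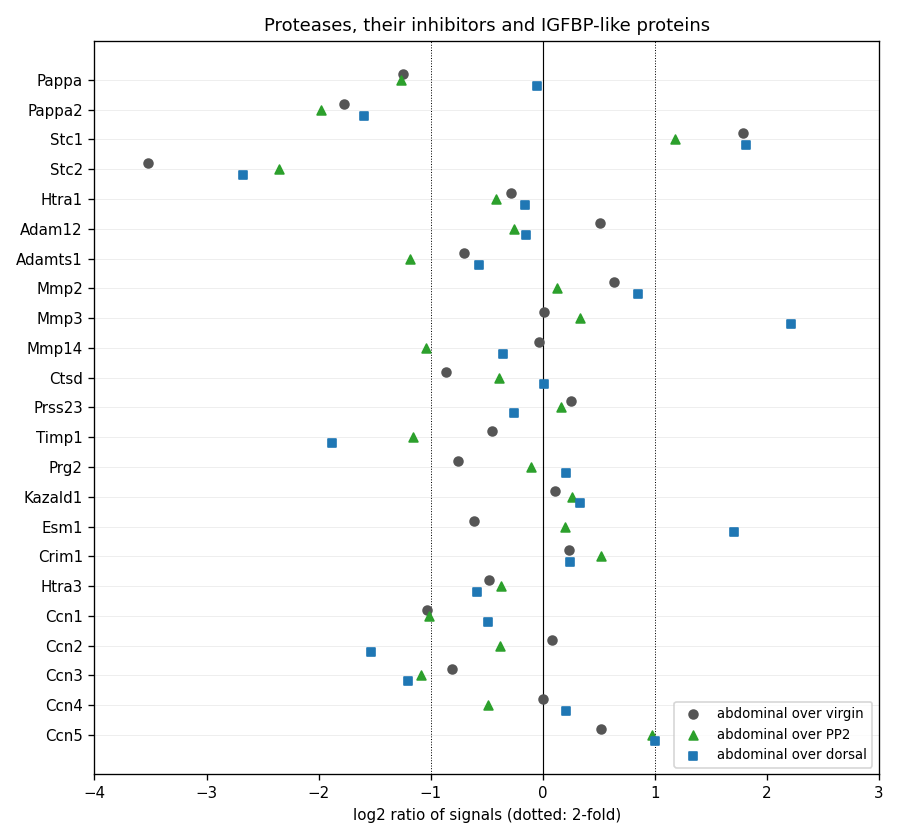
Log2 ratio of the abdominal signal to the virgin (circles), PP2 (triangles) and dorsal (squares) signals for the brightest probe set of each detected gene among the proteases, their inhibitors and proteins with an IGFBP-like domain; dotted lines mark 2-fold. Stc2 and Pappa2 lie left of the lower line in each comparison, and Stc1 lies right of the upper one.

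Proteins that share the amino-terminal domain of the binding proteins, 10 of 11 detected, were split as well. On the abdominal array 0 were higher and 1 lower than in virgin skin, 0 higher and 2 lower than after PP2, and 2 higher and 2 lower than in dorsal skin. Ccn4 (Wisp1) was also lower than after PP2 on a dimmer probe set, with a log2 ratio of -1.17 against -0.49 on its brightest. Ccn1 (Cyr61), a matrix protein induced by growth factors, was at 11978 on the virgin, 8241 on the dorsal, 5863 on the abdominal and 11863 on the PP2 array. Its other 3 probe sets were also lower on the abdominal array but within 2-fold of PP2, with log2 ratios from -0.42 to -0.61. Ccn2 (Ctgf) was highest in dorsal skin, at 8069 against 2639, 2791 and 3641 on the virgin, abdominal and PP2 arrays. Ccn3 (Nov) was at 2358, 3098, 1347 and 2858 on the virgin, dorsal, abdominal and PP2 arrays. Esm1, an endothelial proteoglycan, was low in dorsal skin at 163, against 809, 530 and 463 on the virgin, abdominal and PP2 arrays. Ccn5 (Wisp2) was dim, at 238 on the abdominal array and called absent on the virgin and dorsal arrays, which put it at least 2.01-fold above dorsal skin.

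Of genes tied to Igf2 RNA or to imprinting, 7 of 9 were read by a probe set of their own. On the abdominal array 2 were lower than in virgin skin, 0 passed 2-fold against PP2, and 2 were higher than in dorsal skin. Plagl1 was also lower than in dorsal skin on a dimmer probe set, with a log2 ratio of -1.09 against 0.31 on its brightest. Cdkn1c, an imprinted inhibitor of the cell cycle, was at 1588 on the virgin, 970.4 on the dorsal, 677 on the abdominal and 1272 on the PP2 array. The imprinted gene Mest was dim, at 125, 86.4, 174 and 121 in that order. The Igf2 RNA-binding protein genes were dim too. Igf2bp1 was called present on the virgin array alone, at 83.7 against 33.5 on the abdominal array, and Igf2bp3 was called absent in dorsal skin, where the abdominal signal of 198 was at least 2.78-fold higher on the brightest probe set, while on the other detected one the signals were 83.5 and 61.9.

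The pattern of Igfbp2 over the 4 arrays was compared with that of 11077 other genes by the distance between log2 signals after each gene's own mean was taken away, a smaller distance being a closer pattern. The closest was Cyp2g1, a cytochrome P450, at a distance of 0.57, with 3739 on the virgin, 1413 on the dorsal, 11562 on the abdominal and 5598 on the PP2 array. It had the same order of arrays as Igfbp2, and its abdominal signal was 3.09-, 8.18- and 2.07-fold that on the virgin, dorsal and PP2 arrays. Next came Mme (neprilysin, a membrane peptidase) at 0.98, Akr1c18 (an enzyme that inactivates progesterone) at 1.01, Slc38a4 (an amino acid transporter) at 1.03 and Olfr78 (an olfactory receptor) at 1.08. All were highest on the abdominal and lowest on the dorsal array, but against PP2 the excess of Akr1c18 was only 1.10-fold and that of Slc38a4 1.34-fold, below the 2.92-fold of Igfbp2. With 4 arrays, many genes can share such an order, and the distances are a description only.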

How the data were processed

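Dermal cells were freed from skin by collagenases and hyaluronidase after the fat under the skin had been removed, and their total RNA was labelled with a 3′ kit. The authors deposited, for each of 4 Affymetrix Mouse430_2 arrays, a linear MAS5 intensity, called the signal, with a call of present, marginal or absent for each probe set, made with Affymetrix Expression Console version 1. MAS5 combines the probes of a probe set and scales each array, and the trimmed means (2% cut from each end) were near 500.0 on every array. A common table of the 4 arrays differed from the single ones for 0 values, and 0 columns lacked a sample. A probe set shows the 3′ end of a transcript, so the signals depend on RNA integrity.

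Probe sets with 1 symbol in the platform annotation (34945) were given to genes, and 932 with several and 9160 with none were not. All 27 probe sets of the 10 genes matched RefSeq by Entrez identifier. Of 132 list symbols, 5 were found under newer symbols and 6 had no probe set of their own. Signals were used as deposited, as ratios and log2 ratios of the abdominal array over each other array, with a limit of 2-fold and a present call on the brighter array. Where the dimmer array was not called present, the fold was set against the higher of its signal and the dimmest present signal on that array and written as "at least". The brightest probe set of a gene, by mean log2 signal, stood for it in lists.

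The members, the 4 function lists and the 8 marker lists were chosen with earlier results of these data known. Named were all members, the list genes past 2-fold (the 6 with the largest log2 ratio where more passed) and the 5 genes most like Igfbp2 among those present on all arrays. Marker genes are named as members of their lists, and other list genes only as examples of the list. Since each condition had 1 array, neither errors nor p-values were computed. The calls were tested on simulated data. Python 3.11.15, pandas 2.3.3, numpy 2.4.6 and matplotlib 3.10.9 were used. Alternatives were a common median of present signals, quantile normalization, limits of 1.5- and 3-fold, no detection filter, brightest probe sets only, all detected probe sets of a gene, a pseudocount of 32 and, added after seeing the data, the PP2 array left out.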

Additional observations from a re-analysis of the deposited data

How the results depend on the processing

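With 1 array per condition, nothing here measures biological or technical spread, and all comparisons share the abdominal array. No paired analysis was possible because each condition had 1 array. Of 108 values of single genes under the alternatives, 101 moved by less than the usual spread between probe sets of a gene, 7 moved by more and 0 called values changed sign; the sign turned in 9, whose size as reported was at most 0.14 on the log2 scale. All medians over the members stayed within that spread. A common median moved the median of all genes over PP2 from 0.04 to -0.07, more than any other scaling moved it in the 3 comparisons. Counts of members moved with the fold limit. At 1.5-fold they were 2 higher and 4 lower against virgin, 5 and 9 against PP2, 4 and 8 against dorsal skin, and 2 and 4 against each other array. At 3-fold 0 were lower against virgin or dorsal skin and 2 against PP2, 1 was higher against PP2 and 1 against dorsal skin, and 0 were higher or lower than on each other array. With no detection filter 3 were higher against virgin and 4 against dorsal skin. By brightest probe sets 1 was lower against virgin, 1 was higher and 0 lower against PP2, 1 was higher and 1 lower against dorsal skin, and 0 were lower than on each other array. Under either other scaling 1 was lower against virgin skin, the brighter Igfbp3 probe set dropping out, while 6 were lower against PP2 under the common median and 5 under quantiles, and 5 were lower against dorsal skin under quantiles. Without the PP2 array, an alternative chosen after seeing the data, 2 were lower than on each remaining array. The cause of the other changes was not tested. The alternative of the common table was not run because 0 of its values differed.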
